A study of Bos taurus with 18 samples.

Results

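The 100 most abundant numbered gene models of cattle pituitary and hypothalamus are described here. They were chosen from the deposited expression table as the rows named "gene" plus a number with the highest median FPKM over 18 libraries, so 100 of 21377 numbered gene models, in a table of 27376 gene models, are members. FPKM counts sequenced fragments per kilobase of gene model, scaled to the total of the library, and thus compares levels between genes of different length. The authors' 5999 new gene models were not ranked. The level over all libraries chose the members, so their high level is no finding, and the median FPKM ran from 262 to 1790.5.

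The libraries came from Angus cows of 3 ages, with 3 cows at each age and both tissues from each cow. The cows were calves just weaned at 6 months, sexually mature at 18 months, and past their first calving at 30 months. All were healthy and out of heat when killed, the labels name no treatment, and no genotype beyond the breed is given. The hypothalamus samples were of its upper part. Each of the 6 groups held 3 libraries of poly(A) RNA, and the replicate numbers name samples in the order of their accession.

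The pituitary is the gland that releases growth hormone, prolactin and the hormones that drive the gonads, thyroid and adrenal, and the hypothalamus is the brain region that steers it through releasing hormones. In most tissues a small set of genes makes a large part of the mRNA, among them genes for ribosomal proteins, energy metabolism and the cytoskeleton, and in a gland also the genes of its hormones. The files do not pair gene model numbers with gene names, and 0 of 21377 numbered gene models matched the RefSeq gene table used here. Which members belong to these classes is therefore not given, the tissues could not be checked against their hormone and neuron markers, and no sequence of a member is shown.

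Total gene counts ran from 28724861 to 38036840 per library. The 18-month pituitary replicate 3 stood apart before any comparison. Sites in 3′ untranslated regions (UTRs) took 39.2% of its reads at single-nucleotide polymorphism (SNP) sites, against a median of 23.3% and a next highest value of 30.4% in the 18-month hypothalamus replicate 2. Its FPKM values summed to 452631, where the other 17 libraries summed to between 247590 and 315264. The main results that this library moves are also given without it.

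The most abundant member was gene30448, a gene model of 924 bases on chromosome 29 with a median of 1790.5 FPKM. In the pituitary it stood at 1343, 1604 and 1277 FPKM at 6 months, 1979, 2929 and 1977 at 18 months, and 1179.8, 2134 and 1483 at 30 months. In the hypothalamus it had 2295, 1992 and 2534 at 6 months, 1502, 2510 and 1343 at 18 months, and 1522, 3129 and 1567 at 30 months. Its highest library was 2.65 times its lowest, and the tissues overlapped. It was the most abundant numbered gene model in 13 of the 18 libraries.

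The 2nd member, gene27101, has 6799 bases and lies on chromosome 24, where the SNP sites within it span positions 2485458 to 2590564. Its pituitary FPKM was 391, 575 and 569 at 6 months, 1404, 3077 and 1129 at 18 months, and 704, 178 and 1109 at 30 months. Its hypothalamus FPKM was 2864, 1945 and 897 at 6 months, 1293, 1367 and 744 at 18 months, and 718, 2536 and 1191 at 30 months. Its highest library was 17.3 times its lowest, so a high median did not mean a steady level. A member on the X chromosome, gene31492 (4550 bases, sites from 57865498 to 57881357), had a 13.3-fold range. Its lowest library was the 30-month pituitary replicate 2, at 231 FPKM, and its highest, at 3079 FPKM, the 6-month hypothalamus replicate 1.

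In some short members 1 library stood far above the rest. One was gene32361, of 597 bases with a single site on the X chromosome at position 140975680, which stood between 811 and 1759 FPKM in 17 libraries and at 4099 in the 18-month pituitary replicate 3. In the same way gene12125, of 537 bases on chromosome 10 (sites from 16324563 to 16326315), stood between 610 and 1105 FPKM in 17 libraries and at 3326 in that library. Its coefficient of variation (CV, the SD over the mean) was 62.0% with all libraries and 15.7% without the 18-month pituitary replicate 3.

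The other members among the 12 most abundant had these levels. The FPKM of gene16004 (2605 bases, chromosome 13) ran from 771 to 1804, and that of gene6845 (1262 bases, chromosome 5) from 608 to 1505. The FPKM of gene8018 (2612 bases, chromosome 6) ran from 434 to 1292, and that of gene13726 (1155 bases, chromosome 11) from 368 to 1511. All of these stayed within 4.10-fold. The FPKM of gene15389 (2180 bases, chromosome 13) was 119 in the 18-month pituitary replicate 2, and the other libraries had 472 to 1589. The FPKM of gene21511 (1660 bases, chromosome 18) ran from 501 to 3499, and that of gene1184 (1430 bases, chromosome 1) from 336 to 2222. The plot of the 12 members shows that the red and the blue points overlap for each of them.

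**Figure D1:**
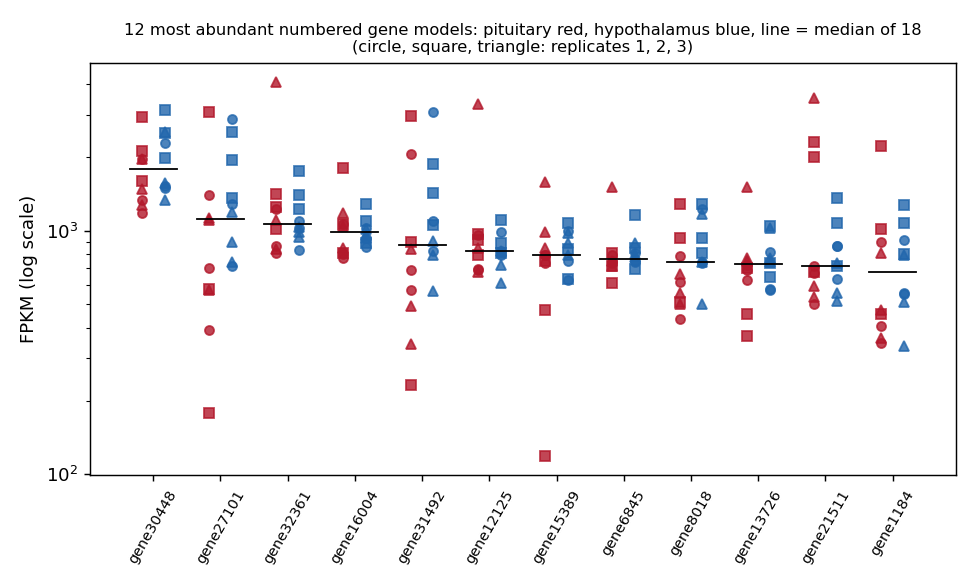
FPKM (log axis) of the 12 numbered gene models of highest median, in each of the 18 libraries. Red points are pituitary and blue points hypothalamus, the shape gives the replicate, and the black line is the median of 18 libraries; gene27101, gene31492 and gene15389 spread over more than 10-fold, while gene16004 and gene6845 stay within 2.5-fold.

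At the edge of the list, gene8340 at rank 99 had a median of 263 FPKM and gene24124 at rank 100 had 262 FPKM. Just outside, gene17118 and gene20709 had 262 FPKM each at ranks 101 and 102. The last places are thus not separated from the next gene models. Leaving out 1 library kept 95 to 100 of the members. Ranking by the 9 pituitary libraries kept 93, by the 9 hypothalamus libraries 95, and by median count without regard to length but scaled for depth 46.

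The members' share of all gene counts had a median of 8.97% over the libraries and ran from 7.81% to 14.7%. In the pituitary it was 7.81%, 8.23% and 8.13% at 6 months, 9.85%, 11.2% and 14.7% at 18 months, and 8.11%, 8.96% and 8.97% at 30 months. In the hypothalamus it was 10.03%, 9.04% and 8.97% at 6 months, 9.22%, 11.3% and 8.45% at 18 months, and 8.94%, 10.2% and 8.90% at 30 months. All 3 pituitary libraries of 18 months thus lay above the 6 pituitary libraries of the other ages, also with replicate 3 of 18 months set aside, and the hypothalamus ages overlapped. The 10 most abundant members took 2.62% and 4.07% in the 18-month pituitary replicates 1 and 2, and 1.35% to 1.81% in those 6 libraries. With these 10 members set aside, replicates 1 and 2 of 18 months no longer lay above all of those 6. By age, the pituitary mean was 8.06% ± 0.215, then 11.9% ± 2.49 and last 8.68% ± 0.494 (SD, n = 3 each). The hypothalamus means were 9.34% ± 0.594, 9.65% ± 1.47 and 9.34% ± 0.730. At these depths the 95% Wilson interval of a share, which covers counting error only, was 7.81% to 7.82% in the 6-month pituitary replicate 1, far narrower than the spread between libraries. The share is a score over chosen members and was not tested. In bulk tissue, a larger share of some cell type and more RNA of a gene per cell cannot be told apart.

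**Figure D2:**
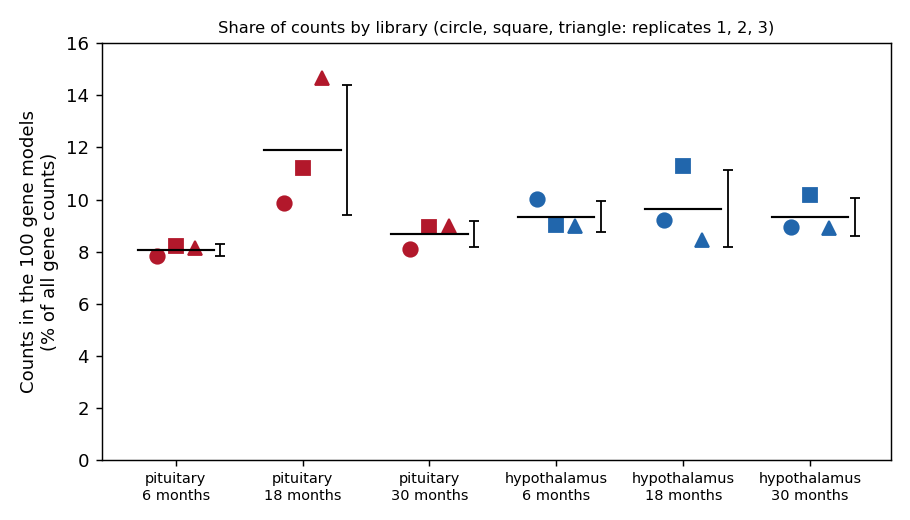
Percent of all gene counts that fell in the 100 members, by group; each symbol is a library, the black line is the mean and the bar beside it the SD of 3 libraries. The 18-month pituitary libraries, at 9.85%, 11.2% and 14.7%, lie above the other pituitary libraries, which reach 8.97%.

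The 10 most abundant members alone took 1.35% to 4.07% of the counts of a library, with a median of 1.87%. The highest value was in the 18-month pituitary replicate 2, followed by 3.52% in the 6-month hypothalamus replicate 1. In the first, gene27101 stood at 3077 FPKM and gene31492 at 2962, and in the second they stood at 2864 and 3079. By summed FPKM, which gives short gene models more weight, the share of all 100 members had a median of 16.9% and ran from 14.96% to 22.8%.

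Steadiness differed widely among the members. The ratio of the highest to the lowest library was under 2 for 7 members, under 5 for 64, under 10 for 88 and over 10 for 12, with a median of 4.07. Without the 18-month pituitary replicate 3 it was under 2 for 37, under 5 for 87 and under 10 for 91. The CV of FPKM had a median of 39.6% (9.71% to 95.8%). Numbered gene models at ranks 101 to 1000 had a median CV of 31.8%, and those at ranks 1001 to 5000 had 28.8%. Without the 18-month pituitary replicate 3 the median CV was 21.1% at each of these ranks, members included, and the median ratio of highest to lowest library among members was 2.16. For 70 of 100 members the highest library was the 18-month pituitary replicate 3. The lowest was the 18-month pituitary replicate 2 for 29 members and the 6-month hypothalamus replicate 3 for 21.

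The steadiest member was gene20675, of 2192 bases on chromosome 18 (sites from 10172625 to 10175924). In the pituitary it stood at 302, 284 and 265 FPKM at 6 months, 316, 250.0 and 347 at 18 months, and 252, 266 and 294 at 30 months. In the hypothalamus it stood at 273, 322 and 318 FPKM at 6 months, 318, 320.3 and 287 at 18 months, and 259, 321 and 302 at 30 months. All libraries lay within a 1.39-fold range, and the CV was 9.71%. The next steadiest were gene22590 (chromosome 19, 1959 bases, CV 14.7%), gene23564 (chromosome 19, 1955 bases, 15.3%), gene100 (chromosome 1, 3614 bases, 15.6%) and gene25075 (chromosome 21, 3170 bases, 15.7%). For gene100 the 18-month pituitary replicate 3 was the lowest library, at 195 FPKM, while for gene22590, gene23564 and gene25075 it was the highest.

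The 5 members of highest CV were gene21603 (95.8%), gene1074 (94.5%), gene24093 (94.2%), gene18167 (93.2%) and gene19724 (91.0%). In each of these, the 18-month pituitary replicate 3 was the highest library, with 2222, 2390.0, 1919, 2141 and 2118 FPKM. Without it, the CV was 21.7% for gene21603, 21.1% for gene24093, 18.9% for gene18167 and 21.1% for gene19724, and to 49.9% for gene1074. For these 5 members, gene1074 excepted, the high CV thus came with 1 library.

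Length went with the deviations in that library. The 28 members of up to 1000 bases had there a median deviation of 1.97 from their own median over all libraries, on the log2(FPKM + 1) scale. The 45 members of 1001 to 3000 bases had 0.99 and the 27 members of over 3000 bases had 0.07. In the 18-month hypothalamus replicate 2 the same medians were 0.54, 0.47 and 0.24. In the other 16 libraries the short members deviated by between -0.32 and 0.31. Of these, the 18-month pituitary replicate 2 had 0.31, 0.01 and -0.44 in the same order, a wider gap than in that hypothalamus library. Across the 100 members, which share their library, the correlation of log length with the deviation was -0.55 in the 18-month pituitary replicate 3. The correlation is a description. In the 18-month replicate 2 of the hypothalamus it was -0.43, and in the others it lay between -0.21 and 0.33. The 18-month pituitary replicate 3 and the 18-month hypothalamus replicate 2 had the highest shares of 3′ UTR reads. In the 18-month pituitary replicate 2 that share was 24.2%. The part of these reads in the result was not tested.

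**Figure D3:**
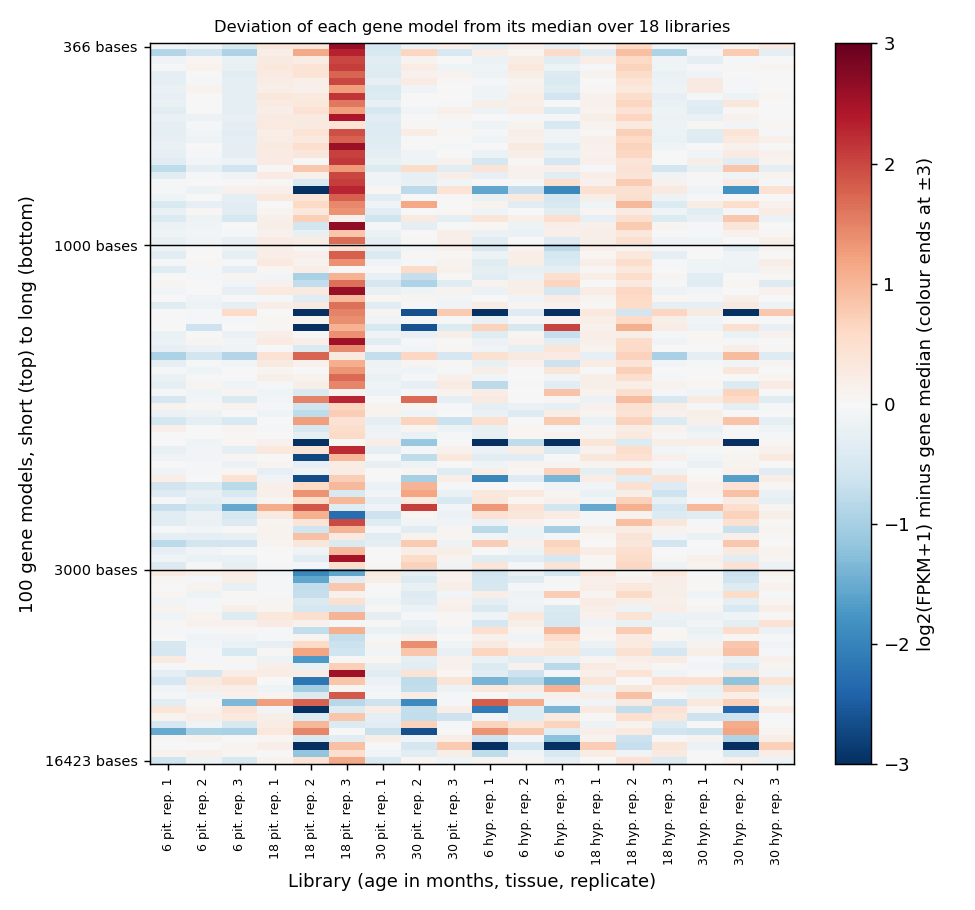
Each row is a member, sorted by gene model length in bases, and each column a library; colour gives log2(FPKM + 1) minus the member's median over the 18 libraries. The short members at the top are high in the 18-month pituitary replicate 3 (median deviation 1.97), and single rows are deep blue in 4 other libraries, among them the 18-month pituitary replicate 2.

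A second pattern lay in 4 other libraries, and the members named for it were chosen after their values were seen. For 11 members the 4 lowest libraries were the same: the 18-month pituitary replicate 2, the 6-month hypothalamus replicates 1 and 3, and the 30-month hypothalamus replicate 2. How many other gene models were lowest there was not counted, so the pattern cannot be called particular to the members. The widest range was that of gene16829, of 1286 bases on chromosome 14 (sites from 25218601 to 25222863). Its FPKM was 31.1, 17.2, 21.5 and 1.52 in these libraries. The 30-month pituitary replicate 2 had 48.9 FPKM, and the other 13 had 207 to 862. The highest was 568 times the lowest.

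On chromosome 3, gene2588 (1962 bases) had 17.9, 13.9, 16.03 and 9.31 FPKM in the same 4 libraries. It had 132 FPKM in the 30-month pituitary replicate 2 and from 173 to 376 in the others. On chromosome 2, gene1488 (11075 bases) had 17.1, 27.5, 24.3 and 18.1 FPKM there and between 178 and 525 elsewhere. On chromosome 28, gene29552 (4620 bases) had 11.5, 73.3, 122 and 62.2 FPKM there and between 191 and 435 elsewhere. These members lie on different chromosomes and differ in length, and 3 of the 4 low libraries are labelled hypothalamus and the other pituitary. The set also held gene23872, gene1074, gene25105, gene4146, gene6103, gene9504 and gene32554. It held gene25105 by little, with 240.2 to 277 FPKM in these libraries and 280.3 in the next. The margin was also small for gene6103, with 187.9 to 239.4 FPKM in these libraries and 250.7 in the next. Neither tissue, age nor replicate number alone separates the 4 libraries from the rest.

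**Figure D4:**
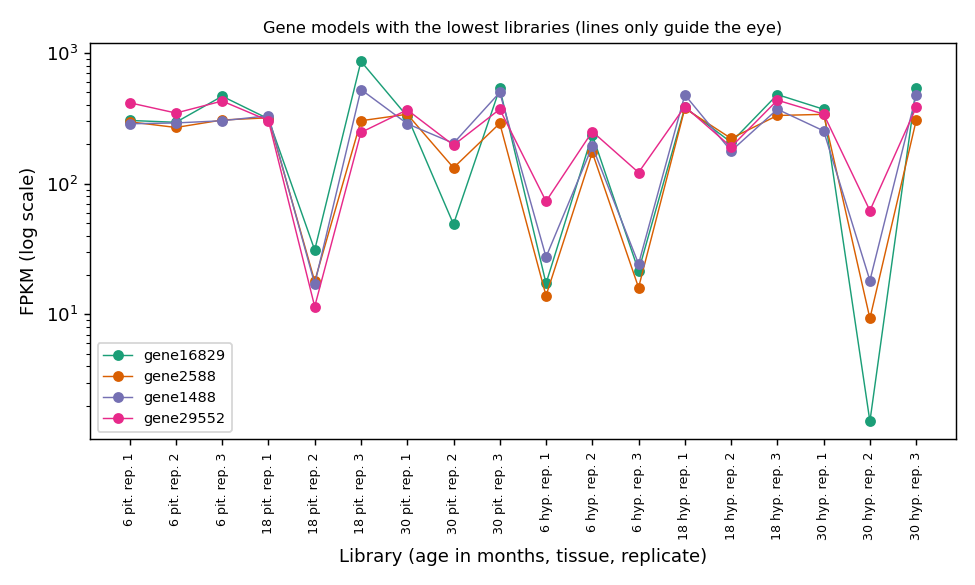
FPKM (log axis) of gene16829, gene2588, gene1488 and gene29552 in each library; lines only join points of a gene model. All have their 4 lowest values in the 18-month pituitary replicate 2, the 6-month hypothalamus replicates 1 and 3 and the 30-month hypothalamus replicate 2, down to 1.52 FPKM for gene16829.

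Other members were high in some of these libraries. The 3 highest libraries of gene27101 were among these 4. They were the 18-month pituitary replicate 2 with 3077 FPKM, the 6-month hypothalamus replicate 1 with 2864, and, with 2536, the 30-month replicate 2 of the hypothalamus. The 6-month hypothalamus replicate 3 had 897 FPKM. On chromosome 29, gene30255 (1382 bases) split them, with 34.4 FPKM in the 18-month pituitary replicate 2, its lowest library, and 1179.7 in the 6-month hypothalamus replicate 3, its highest. It was also low in the 30-month pituitary replicate 2, at 46.8 FPKM.

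How many of the members recur in each library was counted as well. A library's own 100 most abundant numbered gene models held between 59 (18-month pituitary replicate 3) and 92 (30-month hypothalamus replicate 1) of the members, with a median of 85.5. The 2nd lowest was the 6-month hypothalamus replicate 3, with 65. Over all libraries, 218 numbered gene models reached the own 100 of at least 1 library. Of the members, 30 did so in all 18 libraries and 65 in at least 15. The fewest was 8 libraries, for gene22516, gene2639 and gene24124.

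Whether the members differed between the pituitary and the hypothalamus was tested on counts with edgeR's quasi-likelihood test over all gene models. Of 100 members, 0 had an adjusted p under 0.05 and 0 had an unadjusted p under 0.05. Of all 19707 gene models tested, 5.13% had an unadjusted p under 0.05 (1.65% higher and 3.47% lower in the pituitary), and 0 an adjusted one. No fitted difference between tissues exceeded 0.77 on the log2 scale in size, and 93 members lay within 0.5. The median difference was 0.12 (pituitary minus hypothalamus) among members and 0.04 over all gene models tested, with 71 members above 0 and 29 below. This lean rested on the 18-month pituitary replicate 3. Without it the median was -0.05 among members and 0.02 over all gene models tested, with 36 members above 0 and 64 below.

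The smallest p belonged to gene27101, at 1015 ± 866 FPKM in the pituitary and 1506 ± 778 in the hypothalamus (SD, n = 9 each). Its log2 difference was -0.77 (SE 0.36, edgeR adjusted p = 0.976). For gene21573, of 3169 bases on chromosome 18, the means were 428 ± 68.4 and 553 ± 128 FPKM, with a log2 difference of -0.36 (SE 0.17, edgeR adjusted p = 0.991). Of the members higher in the pituitary, gene25105 had the smallest p, with a log2 difference of 0.51 (SE 0.29) and an edgeR adjusted p of 1, followed by gene19724 at 0.38 (SE 0.24). Without the 18-month pituitary replicate 3 the differences were 0.03 (SE 0.11) for gene25105 and 0.04 (SE 0.11) for gene19724. Both had their highest value in the 18-month pituitary replicate 3, where gene25105 stood at 1989 FPKM against at most 515 elsewhere. With animal as a block 2 members had an unadjusted p under 0.05, both lower in the pituitary. In that fit 4.73% of all gene models tested had such a p, 605 lower and 327 higher in the pituitary. Leaving out 1 library at a time, with no block, moved the number of members with an unadjusted p under 0.05. Of the hypothalamus libraries, leaving out 6-month replicate 1, 2 or 3 gave 1, 6 or 1 (4.47%, 7.49% and 3.52% of all gene models tested), 18-month replicate 1 or 3 gave 2 (4.85% and 5.23%), and 30-month replicate 1 or 3 gave 5 or 4 (5.75% and 5.83%). Of the pituitary libraries, leaving out 18-month replicate 1, 2 or 3 gave 8, 9 or 8 (7.18%, 9.13% and 6.35%), and 30-month replicate 2 or 3 gave 1 (5% and 4.51%). The members' counts were thus near or below the share over all gene models. Their direction turned with the library. Of these members, 7 of 8 were higher in the pituitary without 18-month replicate 1 and 7 of 9 without replicate 2, but 8 of 8 were lower without replicate 3. No member passed the adjusted threshold in any of these fits.

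The libraries labelled pituitary and hypothalamus of a cow were compared member by member. The tissue labels could not be checked against marker genes here, so whether each pair holds both tissues was not tested. In the 30-month cow of replicate 3, 99 of 100 members differed by at most 0.5 on the log2 scale of depth-scaled counts (CPM, with 1 added) between pituitary and hypothalamus, with a median absolute difference of 0.06. The count within 0.5 was 95 in the 18-month cow 1, 94 in the 30-month cow 1 and 88 in the 6-month cow 2. It was 71 in the 30-month cow 2, 66 in the 6-month cow 1, 59 in the 6-month cow 3, 53 in the 18-month cow 2 and 27 in the 18-month cow 3. In the latter, 51 members were more than 1 log2 unit higher in the pituitary library, the 18-month replicate 3. Over members, the median absolute difference was 0.19 between both tissues of a cow (9 pairs) and 0.30 between cows within a tissue (72 pairs). Of the latter, 54 pairs also differed in age, and the 18 pairs of the same age gave 0.28. Without that library the values were 0.17 within a cow, 0.27 between cows and 0.25 between cows of the same age. Ranks 101 to 1000 gave 0.21 within a cow and 0.27 between cows, so the smaller distance within a cow was not limited to the members. These distances were not tested.

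Age in the pituitary gave the largest number of members at a low p among these comparisons. For any difference among the 3 ages, 38 of 100 members had an unadjusted p under 0.05 with edgeR, against 7.6% of the 18555 gene models tested and 130 of the 900 at ranks 101 to 1000. Past the adjusted threshold were 0 members (smallest adjusted p 0.645) and 0.00539% of all gene models tested. All 38 had their highest mean at 18 months, 31 had their lowest at 6 months and 7 at 30 months. All 3 libraries of 18 months lay above all 6 of the other ages in 30 of the 100 members, 26 of them among the 38, which were picked by the same comparison. The other gene models were not counted in this way, so the 30 cannot be called particular to the members. By length, 22 of the 38 were among the 28 short members, 11 among the 45 of middle length and 5 among the 27 long ones.

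The count depended on single libraries. Without the 18-month pituitary replicate 3, 20 members had an unadjusted p under 0.05, against 9.52% of the gene models tested in that fit. Of these, 19 were among the 38, all had their highest mean at 18 months, and 9 were short, 7 of middle length and 4 long. Without the 6-month replicates 1, 2 and 3 the count was 13, 20 and 12, against 3.62%, 4.34% and 3.67% of all gene models tested. Without the 30-month replicates 1, 2 and 3 it was 13, 30 and 23, against 5.02%, 7.02% and 5.56%. It rose to 52 and 50 without the 18-month replicates 1 and 2, against 14.6% and 10.1%. On log2(FPKM + 1) with limma-trend it was 4, against 7.07% of all gene models tested, so in that fit the members did not exceed the background.

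The smallest p was that of gene20874, a gene model of 388 bases on chromosome 18. Its pituitary FPKM was 167, 208 and 162 at 6 months, 349, 687 and 1534 at 18 months, and 223, 487 and 222 at 30 months, so that 1 library of 30 months lay within the range of 18 months. The log2 difference was 2.38 at 18 against 6 months and 0.76 at 30 against 6 months (edgeR adjusted p = 0.645). Without the 18-month replicate 3 the former was 1.55 (edgeR adjusted p = 0.492). For gene27101 the group means were 511 ± 104.2, 1870.2 ± 1054 and 664 ± 466 FPKM (SD, n = 3 each). The log2 differences were 2.47 and 0.23 (edgeR adjusted p = 0.645), and all 3 libraries of 18 months exceeded the other 6. With DESeq2, these 2 members passed in this comparison, with adjusted p of 0.0216 for gene20874 and 0.0187 for gene27101. DESeq2 passed 1.35% of all gene models there, so 2 of 100 members lay near the background.

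In the hypothalamus, 4 of 100 members had an unadjusted p under 0.05 for any age difference with edgeR, against 4.47% of 18763 gene models, and 0 passed the adjusted threshold. All 4 had their highest mean at 18 months and their lowest at 6 months. The smallest p was that of gene4146 (4336 bases, chromosome 3), with 109, 158 and 103.8 FPKM at 6 months, 370, 283 and 405 at 18 months, and 399, 124 and 381 at 30 months. All of its 18-month libraries exceeded the 6-month ones, and the 30-month replicate 2 stood among the 6-month values (edgeR adjusted p = 0.958). For gene1074 (832 bases, chromosome 1) the values were 167, 305 and 128 FPKM, then 670.1, 671 and 594, then 454, 138 and 665 (edgeR adjusted p = 0.958). These 2 members are among the 11 that were lowest in the same 4 libraries. The others at an unadjusted p under 0.05 were gene32554 and gene6103, also of those 11. Leaving out 6-month replicate 1 or 2 gave a count of 0 or 9, against 2.59% or 7% of all gene models tested. Leaving out 18-month replicate 1 or 3 gave 1 (3.04% or 3.45%), and 30-month replicate 1 or 2 gave 2 or 8 (3.57% or 9.52%).

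A test over all 18 libraries asked whether the age differences of the tissues were unequal. Of 100 members, 13 had an unadjusted p under 0.05 with edgeR, against 6.03% of 19707 gene models, and 0 passed the adjusted threshold (smallest adjusted p 0.795). Of the 13, 10 were also among the 38 of the pituitary. For gene27101 the difference of 18 against 6 months was 3.25 larger in the pituitary on the log2 scale (edgeR adjusted p = 0.795). For gene19033, of 3071 bases on chromosome 16, it was -1.74 (edgeR adjusted p = 0.795). Its pituitary FPKM was 549, 514 and 544 at 6 months, 442, 121 and 158 at 18 months, and 563, 378 and 509 at 30 months. In the hypothalamus it was 320.1, 399 and 323, then 580.5, 475 and 580.1, then 457, 296 and 505. The pituitary value at 18 months was below both other ages in 2 of 3 libraries.

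Single libraries moved the number of members with an unadjusted p under 0.05 in the test of the age effect between tissues. Of the pituitary libraries, leaving out 18-month replicate 1 or 2 gave 44 or 31, against 12% or 5.97% of all gene models tested, and 6-month replicate 1 or 3 gave 5 or 6 (4.17% or 3.92%). Of the hypothalamus libraries, leaving out 18-month replicate 1, 2 or 3 gave 4, 22 or 4 (3.64%, 9.14% or 3.27%), and 6-month replicate 1 gave 6 (3.79%). Without the 18-month pituitary replicate 1, gene19033 passed with an edgeR adjusted p of 0.0451, as did 0.049% of all gene models tested. Without the 18-month pituitary replicate 3 the number was 15, against 10.1%.

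The biological coefficient of variation is the relative spread between libraries of the same group beyond counting error. In the fit of all 18 libraries it had a median of 32.7% among members. It was 31.2% at ranks 101 to 1000 and 44.0% over all gene models tested. In the pituitary fit it was 40.01% among members against 36.98% at ranks 101 to 1000, and in the hypothalamus fit 24.4% against 24.96%. The members' spread was thus close to that of the next 900 gene models. Without the 18-month replicate 3 the pituitary fit gave 21.04% among members and 21.03% at ranks 101 to 1000. The members' median counts ran from 4918 to 110606 per library.

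Members tended to be short. Their gene model length had a median of 1715.5 bases (366 to 16423), against 3477 bases for all numbered gene models and 2764 bases at ranks 101 to 1000. Of the members 28% had at most 1000 bases, against 14.8% of all numbered gene models and 12.2% at ranks 101 to 1000. FPKM is divided by length, so this is a description and not a test. The shortest was gene24093 (366 bases) and the longest gene14784 (16423 bases, chromosome 12).

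The deposited FPKM did not always follow the deposited length. The FPKM of gene14784 was 14.2 times the value computed from its count, its deposited length and the library total. This ratio had a median of 0.907 over the members, and for 35 of them it lay at the lowest value, 0.773. Ranked by counts per deposited length, 77 of the 100 members remained, and gene14784 had a median count of 23837 against 66395 for gene30448 of 924 bases.

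By chromosome, 92 members were named by SNP sites, within the gene model or annotated outside it, which gave their place. Gene model numbers ran in unbroken blocks along the chromosomes, with 0 overlapping blocks among 55 chromosomes and scaffolds, and the other 8 members were placed by their number. The members lay on 28 of 29 autosomes and on the X chromosome, with 1 on an unplaced scaffold. Chromosome 18 held the most, with 9 members (9% of members against 5.66% of numbered gene models), followed by chromosome 7 with 7 (5.88% of numbered gene models) and chromosomes 3 and 11 with 6 each. The X chromosome held 5 (4.49% of numbered gene models) and chromosome 26 none. Chromosome 20, with 3 members among 303 numbered gene models, had the highest rate of any chromosome, at 0.99%.

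Among the members, 2 pairs lay within 10 numbers of each other. On chromosome 18, gene21683 (663 bases, median 345 FPKM) and gene21684 (578 bases, median 361 FPKM) are consecutive numbers. In the 18-month pituitary replicate 3 gene21683 stood at 2095 FPKM and gene21684 at 858. On chromosome 11, gene13772 (4943 bases, 317 FPKM) and gene13776 (981 bases, 299.6 FPKM) are 4 numbers apart. Where neighbouring gene models overlap, reads could be counted for either, and the sources used here do not give the counting rule.

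The classes of coding SNP sites, which the ranking did not use, were counted in the members and in the later ranks, with no test of a difference. Of 108 coding sites in 41 members, 22 were nonsynonymous and 86 synonymous, so 20.4% were nonsynonymous (95% exact binomial interval 13.2% to 29.2%, counting error only). At ranks 101 to 1000 the share was 27.3% of 1727 sites, at ranks 1001 to 5000 29.3% of 10492, at ranks 5001 to 10000 36.5% of 17442 and at later ranks 43.7% of 20620. The share was higher in each band of lower abundance, and the interval of the members overlapped that of ranks 101 to 1000 (25.2% to 29.5%) and that of ranks 1001 to 5000 (28.4% to 30.2%), but not those of ranks 5001 onward. At sites with a median depth of at least 20 reads the shares were 17.2%, 25.1%, 27.49%, 34.8% and 40.3% in the same order. The median depth at coding sites was 220 reads in members and lower in each later band, down to 3 at the last ranks, and its part in the order was not tested.

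The 22 nonsynonymous sites lay in 12 members. The most were in gene13772 with 5 beside 2 synonymous sites, gene13067 with 3 beside 3, and gene16004 with 3 and no synonymous site. By contrast, gene1488 held 5 synonymous and no nonsynonymous sites. Sites of a gene model are not independent, so these 3 members weigh on the total. The members had 172 sites in 3′ UTRs and 40 in 5′ UTRs. They had 1.29 coding and UTR sites per kilobase of gene model, against 1.09 at ranks 101 to 1000 and 0.843 over all numbered gene models. The median depth at coding sites was 220, 190.5 and 14 reads in the same order. More sites can be found where depth is higher, and the part of depth in these densities was not tested.

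**Figure D5:**
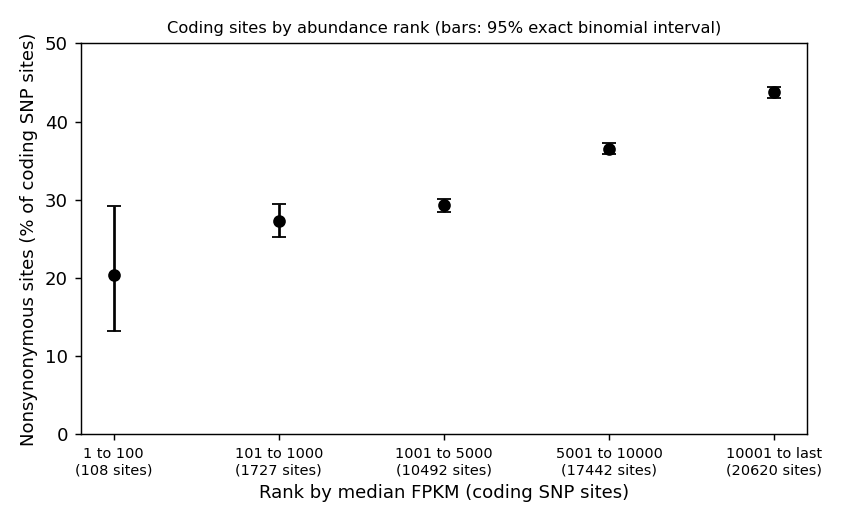
Nonsynonymous sites as a percent of coding SNP sites, by rank of the gene model's median FPKM, with 95% exact binomial intervals; the number of coding sites is under each band. The 100 members stand at 20.4% and the last band at 43.7%.

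For gene30448 the gene models of most similar pattern were sought among the 5398 numbered gene models with a median of at least 10 FPKM, as a description over 18 libraries. The most similar were gene18914 (Pearson's r of log2(CPM + 1) 0.964, Spearman's rho 0.957, 7632 bases), gene29854 (r 0.942, rho 0.913) and gene11373 (r 0.936, rho 0.928). Without the 30-month hypothalamus replicate 2 and the 18-month pituitary replicate 2, the libraries farthest from the median of gene30448, r was 0.941, 0.919 and 0.910. None of these is a member, and their median levels were 21.7, 117 and 130.2 FPKM.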

How the data were processed

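Poly(A) RNA libraries of 18 samples in 6 groups were compared. The authors deposited whole-number counts per gene model and FPKM per gene model. Per the submitters' processing notes the tools were HISAT2, StringTie, GATK and also DESeq; their roles, versions, build and annotation are not given in the sources used here. The authors also deposited SNP sites with the genotype and the count of reads at each site per library, per the file headers, under the UMD assembly's NCBI chromosome names; the 992284 sites served for positions, site classes and animals. Gene model lengths came with the counts, per the file headers. The insertion and deletion table was not used here. Columns were matched by the codes in the titles, and 0 were left over.

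Members and lists were chosen with earlier results of these data known. The count test was quasi-likelihood, by edgeR 4.0.16 in R 4.3.3 with limma 3.58.1. It used TMM factors, the edgeR expression filter, Benjamini-Hochberg adjustment over all gene models and a threshold of 0.05. Tissue and the tissue-by-age terms used all 18 libraries, and age used the 9 of a tissue, as an F test. In the main fits a p-value weighs a difference against the spread between libraries of the same group. Alternatives were other factors and filters, DESeq2 1.42.0, limma-trend on log2(FPKM + 1) and log2(FPKM + 0.1), and each library left out. Fitted differences without the 18-month pituitary replicate 3, the pairs of the same age, counts per deposited length and sites read 20 times were added after seeing the data. The edgeR steps were tested on simulated data. Named gene models were the 12 most abundant members, ranks 99 to 102, the 5 of lowest and of highest CV, the 2 of smallest p per test and direction, and for gene30448 the 3 most similar gene models. Other gene models named in the text were chosen after their values were seen.

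Genotypes at sites read at least 20 times in both libraries were 99.3% to 99.7% identical within 9 pairs of libraries and 50.1% to 66.7% between pairs. Each pair held the libraries labelled as both tissues of the same age and replicate number, so the numbers mark animals. Animal served as a block only in an alternative fit of the tissue test and of the tissue-by-age test. The main fits had no such block and took both libraries of a cow as independent. Of 153 library pairs, 0 had identical counts.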

Additional observations from a re-analysis of the deposited data

Results flagged for a closer look

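Groups of 3 libraries are too small for a check of single values, so the 9 libraries of a tissue were used; such a check marks about 1 in 20 sets by chance. The 18-month pituitary replicate 3 stood apart in the percent of counts taken by the members, 14.7%, and in their median log2 deviation, 1.02. In the hypothalamus the median log2 deviation was farthest out in the 18-month replicate 2, at 0.44. Among the 9 hypothalamus libraries, the 6-month replicate 3 held the fewest members in its own 100 most abundant numbered gene models, 65.

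Among the authors' new gene models, which were not ranked, 3 had a median FPKM above that of the last member. These were Bos_taurus_newGene_15922 with 458 FPKM (47.3 to 1725), Bos_taurus_newGene_26085 with 343 FPKM (221 to 1673) and Bos_taurus_newGene_57602 with 270.2 FPKM (198 to 1247). The first has a deposited length of 328488 bases and the other two 1044 and 1091 bases.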

How the results depend on the processing

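The counts that follow are of members with an unadjusted p under 0.05. Brackets after a count give the percent of all gene models tested that passed in the same fit or fits. For the tissue difference edgeR gave 0 (5.13%), upper-quartile factors 2 (5.17%), no filter on low counts 1 (4.89%) and DESeq2 1 (6.58%). There limma-trend gave 1 (4.56%) with a pseudocount of 1 and 3 (4.53%) with 0.1, and the replicate block by animal 2 (4.73%). Libraries left out gave 0 to 9 (2.75% to 9.13%). For age in the pituitary edgeR gave 38 (7.6%), both limma-trend fits 4 (7.07% and 7.03%) and libraries left out 12 to 52 (3.62% to 14.6%). For age in the hypothalamus edgeR gave 4 (4.47%), DESeq2 7 (7.54%) and libraries left out 0 to 9 (2.59% to 9.52%). For the age effect between tissues edgeR gave 13 (6.03%), limma-trend 4 (6.09%) and 6 (6%), and the replicate block by animal 17 (8.6%). Libraries left out gave 4 to 44 (3.27% to 12%). The members' median tissue difference (log2, pituitary minus hypothalamus) was 0.12, and -0.05 without the 18-month pituitary replicate 3. Past the adjusted threshold, DESeq2 gave 2 members (1.35%) for age in the pituitary. In the test of the age effect between tissues 1 member (0.049%) passed with a library left out. Every other count of members was 0. Without gene length in the ranking 46 members remained. The members' share was 16.9% of summed FPKM, and 8.97% with each library left out. With 1 library omitted the median CV lay between 21.1% and 40.9%. Where no cause is given, the cause was not tested.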
